A study of Mus musculus with 3 samples.

Results

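The 10 genes described here encode the enzymes that turn cholesterol into testosterone and dihydrotestosterone, and the proteins that hand them electrons: Cyp11a1, Hsd3b1, Cyp17a1, Hsd17b3, Hsd3b6, Srd5a1, Fdx1, Fdxr, Por and Cyb5a. They were chosen by name, with earlier results of these data known, and all 10 were found among the 24698 genes of the count table. The cells came from testes of adult C57BL/6 male mice aged 8 to 12 weeks, which were dissociated and sorted for SCA1+/cKit- interstitial cells. Sorted cells were plated on Matrigel, recovered for 18 h, expanded for 3 days with the growth factors PDGFAA, PDGFBB and FGF2 at 10 ng/ml each and 0.5 µM of the Hedgehog agonist SAG, and then moved to a medium holding the same factors plus 5 mM LiCl2 and 10 µM of the Notch-pathway inhibitor DAPT. Single cells were captured by Drop-seq on day 4, at the end of expansion, on day 7, after 3 days in the differentiation medium, and on day 14, after 10 days in it. Every cell of a day came from 1 library, so the differences below compare 3 libraries with no replicate check, and every interval is a 95% interval that covers counting error only. The sort marks a mixed interstitial population, and no untreated culture or Leydig cell taken straight from the testis is analysed here.

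Leydig cells make testosterone in steps that are split between mitochondrion and endoplasmic reticulum. In the mitochondrion, CYP11A1 cleaves the side chain of cholesterol to give pregnenolone, using electrons that ferredoxin reductase (FDXR) passes to ferredoxin (FDX1). In the endoplasmic reticulum, the 3β-hydroxysteroid dehydrogenases HSD3B1 and HSD3B6 form progesterone, CYP17A1 converts it to androstenedione, and HSD17B3 completes testosterone, while SRD5A1 reduces testosterone to dihydrotestosterone. CYP17A1 takes its electrons from cytochrome P450 oxidoreductase (POR), and cytochrome b5 (CYB5A) favours its lyase step. In the mouse testis Hsd3b6 is known as the form of adult Leydig cells and Hsd3b1 as the form present from fetal life on.

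The 3 libraries held between 973 and 2980 cell barcodes and between 5324400 and 12677110 UMIs, and the median barcode held between 2886.5 and 3285 UMIs. No kept barcode was shared between days. Within a day, however, 43.8% of the barcodes on day 4, 47.3% on day 7 and 51.8% on day 14 had the same first 11 of their 12 bases as at least 1 other barcode, and these held fewer UMIs than the rest, with a median of 2135.5 against 7508 on day 14. Barcodes of such a group were alike in Cyp11a1, and much less so in some other members. With barcodes thinned to 1500 UMIs, 638 of day 7 still had a partner in their group, and 3.13% of them had a Cyp11a1 UMI. The partner then had one too in 87.0% of pairs, against 0.371% when the first barcode had none. For Cyb5a on the same day the shares were 30.4% and 28.9%, and for Fdx1 26.5% and 11.2%. Drop-seq beads that lack a base of the barcode are known to spread over up to 4 barcodes. Shares of cells are therefore given both per barcode and per barcode group, that is, with barcodes of the same first 11 bases summed, which left 2027 groups on day 4, 1414 on day 7 and 601 on day 14. Summed levels are the same in both.

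Cyp11a1 lies on chromosome 9 of GRCm38, on the forward strand at 58006411 to 58027023, and Fdx1 lies on the reverse strand of the same chromosome at 51943306 to 51963556 (GENCODE M21). Fdxr is on chromosome 11 at 115268024 to 115277050, and Cyp17a1 on chromosome 19 at 46667165 to 46673172, both on the reverse strand. Hsd3b1 (98852194 to 98859794) and Hsd3b6 (98805504 to 98814443) are neighbours on the reverse strand of chromosome 3, 37750 bases apart. The last 500 bases of their transcripts share at most 43 bases in 1 run, under the 94-base read, whereas Hsd3b6 shares a run of 153 bases there with Hsd3b3, so Hsd3b6 counts are the less certain of the pair.

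The 250 bases before the RefSeq start of 4 members are shown because these genes are the ones whose co-detection with the enzymes is described below. RefSeq (GRCm38.p6) gave such a stretch for 8 of the 10 genes. Cyp17a1 and Cyb5a had no entry. Capitals mark matches, on either strand, to AGGTCA or CAAGGNC, letters of the sites that the orphan receptor encoded by Nr5a1 is known to bind, and to TATAAA. The sequences run from 5′ to 3′ on the strand of the gene.
Cyp11a1, chr9:58014702-58014951, forward strand: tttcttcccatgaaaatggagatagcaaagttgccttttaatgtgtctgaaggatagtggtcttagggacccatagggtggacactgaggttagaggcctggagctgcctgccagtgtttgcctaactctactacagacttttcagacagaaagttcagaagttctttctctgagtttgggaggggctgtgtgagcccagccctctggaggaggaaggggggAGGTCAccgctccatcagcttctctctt
Hsd3b1, chr3:98859795-98860044, reverse strand: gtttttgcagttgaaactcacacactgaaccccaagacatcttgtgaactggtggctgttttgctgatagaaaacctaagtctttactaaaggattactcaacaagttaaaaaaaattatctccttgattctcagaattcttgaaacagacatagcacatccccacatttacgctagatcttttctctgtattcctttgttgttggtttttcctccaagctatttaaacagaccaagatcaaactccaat
Fdx1, chr9:51963603-51963852, reverse strand: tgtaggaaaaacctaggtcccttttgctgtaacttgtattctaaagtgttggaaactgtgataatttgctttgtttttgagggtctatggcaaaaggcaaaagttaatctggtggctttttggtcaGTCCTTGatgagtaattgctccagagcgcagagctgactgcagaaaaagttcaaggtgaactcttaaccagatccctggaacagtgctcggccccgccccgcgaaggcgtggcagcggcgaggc
Fdxr, chr11:115276970-115277219, reverse strand: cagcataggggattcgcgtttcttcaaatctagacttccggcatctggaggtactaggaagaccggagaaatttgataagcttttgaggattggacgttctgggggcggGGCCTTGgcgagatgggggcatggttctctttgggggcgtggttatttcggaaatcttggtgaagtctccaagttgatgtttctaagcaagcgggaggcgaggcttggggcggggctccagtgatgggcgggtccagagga
RefSeq gives Cyp11a1 a pair of starts. The printed stretch lies inside the gene span given above, and the stretch of the other start, chr9:57997774-57998023, held none of the 3 motifs. The printed Cyp11a1 stretch held AGGTCA from 28 to 23 bases before its start. Fdx1 held CAAGGNC on the opposite strand, from 124 to 118 bases before its start, and Fdxr on the opposite strand from 141 to 135 bases before. The Fdxr stretch overlaps the Fdxr span given above, so these positions hold for the RefSeq starts only. The Hsd3b1 stretch held none of the 3 motifs. Of all 32851 RefSeq promoters, 14.0% held AGGTCA, 15.0% CAAGGNC and 12.4% TATAAA in the same window, against 1, 2 and 0 of the 9 member stretches. The matches are letters in a window and were not tested as binding sites.

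The side-chain cleavage enzyme was already measurable on day 4. In UMIs per 1000000 (CPM), Cyp11a1 stood at 19.5 on day 4 (interval 17.1 to 22.1), at 56.8 on day 7 (52.5 to 61.3) and at 2089 on day 14 (2050.2 to 2128). Its level was 2.91 times higher on day 7 than on day 4 (2.51 to 3.39) and 36.8 times higher on day 14 than on day 7 (34.0 to 39.9). Hsd3b1 had 11.5, 20.2 and 1769.6 CPM on the same days, and its day 14 level was 87.6 times that of day 7 (76.9 to 100.1). Both enzymes thus gained most between days 7 and 14. Cyp17a1 was barely counted early on, with 2 UMIs on day 4 (0.158 CPM), 27 UMIs on day 7 (2.32 CPM) and 4560 UMIs on day 14 (856 CPM). Its day 14 level was 369 times that of day 7 (253 to 560.3).

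The enzymes that finish testosterone and dihydrotestosterone gave few UMIs on any day. Hsd17b3 had 5, 13 and 69 UMIs on days 4, 7 and 14, or 0.394, 1.12 and 13.0 CPM, and was 11.6 times higher on day 14 than on day 7 (6.35 to 22.9). Hsd3b6 had 1 UMI on day 4, 2 on day 7 and 60 on day 14, the last giving 11.3 CPM. A single day 14 barcode carried 43 of those 60 UMIs. Its log2 ratio of day 14 to day 7, with 1 CPM added to both levels, was 3.39 and came to 1.84 without the barcode group that held most of it. Srd5a1 was the flattest enzyme, at 7.49, 9.29 and 10.3 CPM over the 3 days. Its day 14 level was 1.11 times that of day 7, with an interval of 0.789 to 1.55 that includes 1. Drop-seq reads the 3′ end of each transcript, so these levels are not divided by length. Capture can differ between genes, and only levels of the same gene are compared. Within a library, more cells that make a transcript and more RNA per cell give the same sum.

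**Figure D1:**
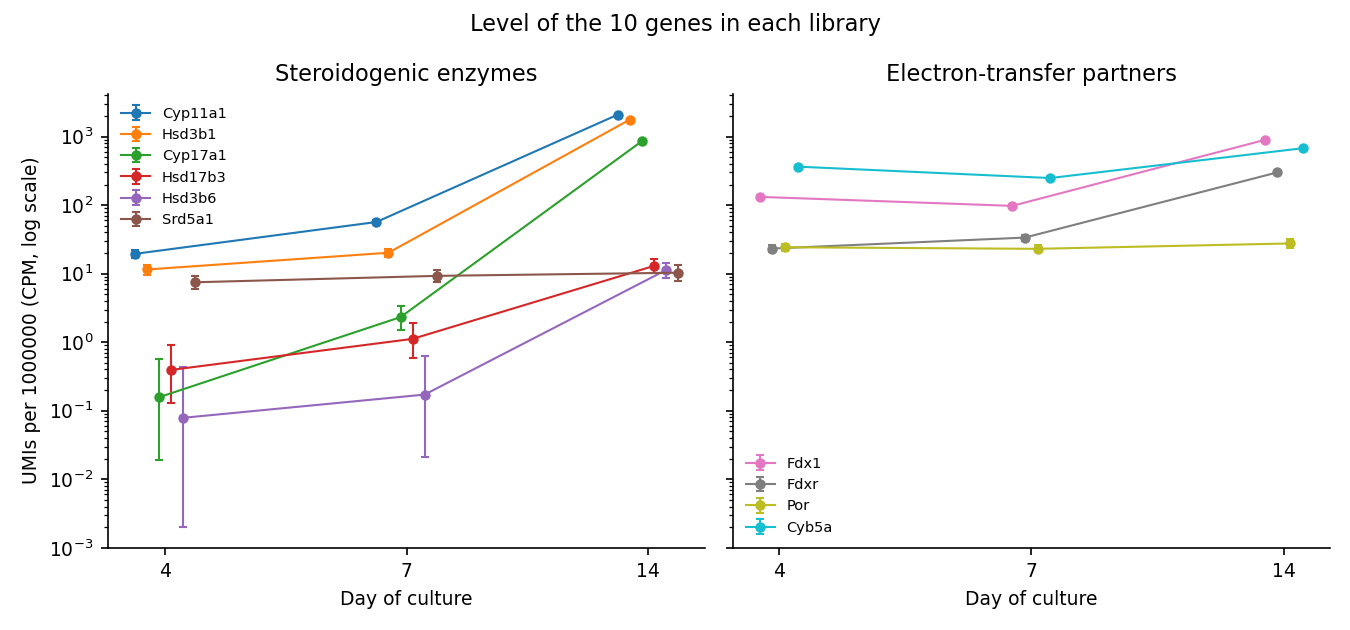
Level of each gene in UMIs per 1000000 (CPM, log scale) in the 1 library of each day, with the days evenly spaced and bars showing the 95% Poisson interval. Cyp11a1, Hsd3b1 and Cyp17a1 end between 856 and 2089 CPM on day 14, whereas Srd5a1 and Por stay near their day 4 level.

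Of the 4 electron-transfer partners, 3 were at least 2-fold higher on day 14 than on day 7, and Por was not. The mitochondrial pair had the larger ratios. Fdx1 had 132, 97.6 and 895 CPM on days 4, 7 and 14, and Fdxr had 23.3, 33.6 and 301 CPM. From day 7 to day 14 Fdx1 was 9.17 times higher (8.59 to 9.79) and Fdxr 8.94 times higher (8.00 to 10.0), so their ratios differed by less than counting error. Fdx1 was lower on day 7 than on day 4, at 0.739 times (0.685 to 0.798), whereas Fdxr was 1.45 times higher (1.24 to 1.69). Among the microsomal partners, Por was nearly level, with 24.3, 23.0 and 27.6 CPM in that order, and on day 14 had 1.198 times its day 7 level (0.973 to 1.47). Cyb5a had 365 CPM on day 4 and 249 CPM on day 7, and reached 677 CPM on day 14. That was 2.72 times its day 7 level (2.59 to 2.86) and 1.86 times its day 4 level (1.78 to 1.94).

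For counts over genes, a gene was called when its log2 ratio, with 1 CPM added, was at least 2-fold in either direction and it had at least 20 UMIs over both days. From day 7 to day 14, 8 of the 10 members were called higher and 0 lower, beside 10.1% of 12656 genes called higher and 14% called lower. The 2 members not called were Por and Srd5a1. Hsd3b6 and Hsd17b3, both among the 8, reached the UMI minimum only through day 14, the day on which they were high, so their calls are no support for the count. The median log2 ratio of the members was 3.15, beside -0.13 over all genes. From day 4 to day 7, 2 of the 8 members with enough UMIs were called higher, Cyp11a1 and Cyp17a1, and 0 lower, where 2.25% of genes were called higher and 2.76% lower. Cyp17a1 reached the UMI minimum only through day 7. The count was 1 with 5 CPM added in place of 1, or with a minimum of 100 UMIs. From day 4 to day 14, 7 of 10 were called higher, beside 13.5% of genes. Cyp17a1, Hsd17b3 and Hsd3b6, with 2, 5 and 1 UMIs on day 4, reached the UMI minimum only through day 14. Their calls are no support for that count.

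The order of appearance was read from the level on day 7 as a percent of that on day 14. Cyp17a1 had reached 0.271% of its day 14 level by day 7, the lowest percent. Hsd3b1 had reached 1.14%, Hsd3b6 1.53% and Cyp11a1 2.72%. The interval of Hsd3b6, 0.181 to 5.76%, takes in the value of Cyp17a1, so the last place is not settled between them. Hsd17b3 stood at 8.63%, Fdx1 at 10.9% and Fdxr at 11.2%. Cyb5a had reached 36.7%, Por 83.5% and Srd5a1 89.9%. Going from the last gene to the first, the neighbours Cyp17a1 and Hsd3b1 differed beyond counting error (ratio of the percents 4.21, 2.82 to 6.54), as did Cyp11a1 and Hsd17b3 (3.17, 1.60 to 5.83), Fdxr and Cyb5a (3.29, 2.91 to 3.72), and Cyb5a and Por (2.27, 1.84 to 2.81). The other 5 neighbouring pairs had intervals that include 1. Read from day 4 instead, Cyp17a1 was again last, at 0.0184% of its day 14 level, and Fdx1 at 14.8% was ahead of Fdxr at 7.74%. Cyp17a1, Hsd3b1, Hsd3b6 and Cyp11a1 filled the last 4 places in 5 alternative readings of day 7, thinning to 1500 UMIs among them. The order among the 4 could change. In the thinned reading Hsd3b6 had no UMI on day 7 and took the last place, with Cyp17a1 next to it. The percent itself depended on the weight of cells. Cyp11a1 came to 5.71% and Cyp17a1 to 0.866% with equal weight for every barcode, and to 5.60% and 0.939% with every barcode thinned to 1500 UMIs. Hsd3b1 came to 1.62% and 1.92% in the same readings, a smaller ratio to Cyp17a1 than in the summed levels. Of the 27 Cyp17a1 UMIs of day 7, 10 lay in 1 barcode group and 14 in another. The intervals do not hold such clustering.

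**Figure D2:**
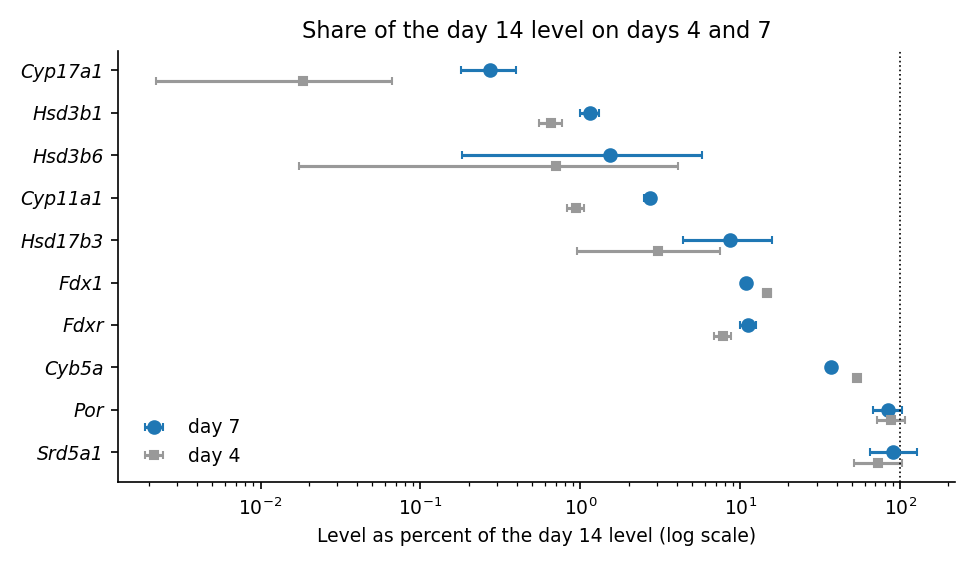
Level on day 7 (circles) and day 4 (squares) as a percent of the day 14 level (log scale), with 95% intervals from the counts the genes sorted by day 7 and a dotted line at 100%. Cyp17a1 has the lowest percent on both days, and Por and Srd5a1 lie nearest the line.

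The early enzyme UMIs sat in a handful of cells. On day 4, 2 barcode groups were enough to hold 50% of all Cyp11a1 UMIs and 2 to hold 50% of Hsd3b1. On day 7 the numbers were 3 and 2, and on day 14 they were 40 and 39. Barcode groups with at least 3 Cyp11a1 UMIs, a limit set after the counts were seen, numbered 6 of 2027 on day 4 (0.296%, 0.109 to 0.643%), 18 of 1414 on day 7 (1.27%, 0.756 to 2.004%) and 252 of 601 on day 14 (41.9%, 37.95 to 45.99%). Because they were picked by Cyp11a1, their Cyp11a1 content is a description. They held 94.3%, 97.9% and 98.3% of the day's Cyp11a1 UMIs. Without the groups of days 4 and 7, which by their choice take most Cyp11a1 away, the day 7 level of Cyp11a1 was 0.0585% and that of Cyp17a1 0.0204% of day 14.

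Inside these groups Cyp11a1, by which they were picked, had 3028, 3939 and 3781 CPM on days 4, 7 and 14. Fdxr, which the choice did not use, had 377 CPM on day 4 (252 to 541), 579 CPM on day 7 (469 to 708) and 403 CPM on day 14 (381 to 427). Fdx1 was highest on day 4, with 2950.04 CPM against 1384 and 1400.4 CPM. That order rests on a pair of groups, which held 183 of the 227 Fdx1 UMIs of day 4. Without the 2 groups that held most Fdx1 on each day, a choice made after the counts were seen, the levels were 1223, 621 and 1314 CPM. The choice used Fdx1 itself and took 143 of 227 Fdx1 UMIs on day 7 but 316 of 4048 on day 14. It therefore lowers the early days more, and no order is read from these levels. Hsd3b1 had 1754, 1396 and 2980.03 CPM. Cyp17a1 set the days apart. It had 0 UMIs in the 6 groups of day 4 beside 233 Cyp11a1 UMIs, 25 UMIs in 3 of the 18 groups of day 7 beside 646 Cyp11a1 UMIs, and 4485 UMIs in 152 of the 252 groups of day 14 beside 10929. That was 3.87 Cyp17a1 UMIs per 100 Cyp11a1 UMIs on day 7 (2.49 to 5.77) and 41.0 per 100 on day 14 (39.6 to 42.5), and a count of 0 allows up to 1.29 per 100 on day 4. Hsd3b1 gave 57.9 per 100 on day 4 (46.5 to 71.9), 35.4 per 100 on day 7 (30.4 to 41.3) and 78.8 per 100 on day 14 (76.6 to 81.1), a narrower range than that of Cyp17a1.

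The 4 leading groups of day 4 show the pattern cell by cell. Cyp11a1 had 94, 54, 49 and 29 UMIs in them. Hsd3b1 had 50, 43, 27 and 12 UMIs in the same order, and Cyp17a1 none. Insl3, which encodes a peptide hormone of Leydig cells, had 16, 10, 13 and 0 UMIs there. The first of them also held 44 UMIs of the smooth muscle gene Acta2, and the other 3 none. On day 7 the Cyp17a1 UMIs lay in groups with 120, 31 and 22 Cyp11a1 UMIs, which held 10, 1 and 14 Cyp17a1 UMIs, while the group with most Cyp11a1, 185 UMIs, held none. In all, 92.6% of the Cyp17a1 UMIs of day 7 were in the 18 groups. The 6 and 18 groups took 0.607% and 1.41% of their day's UMIs.

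**Figure D3:**
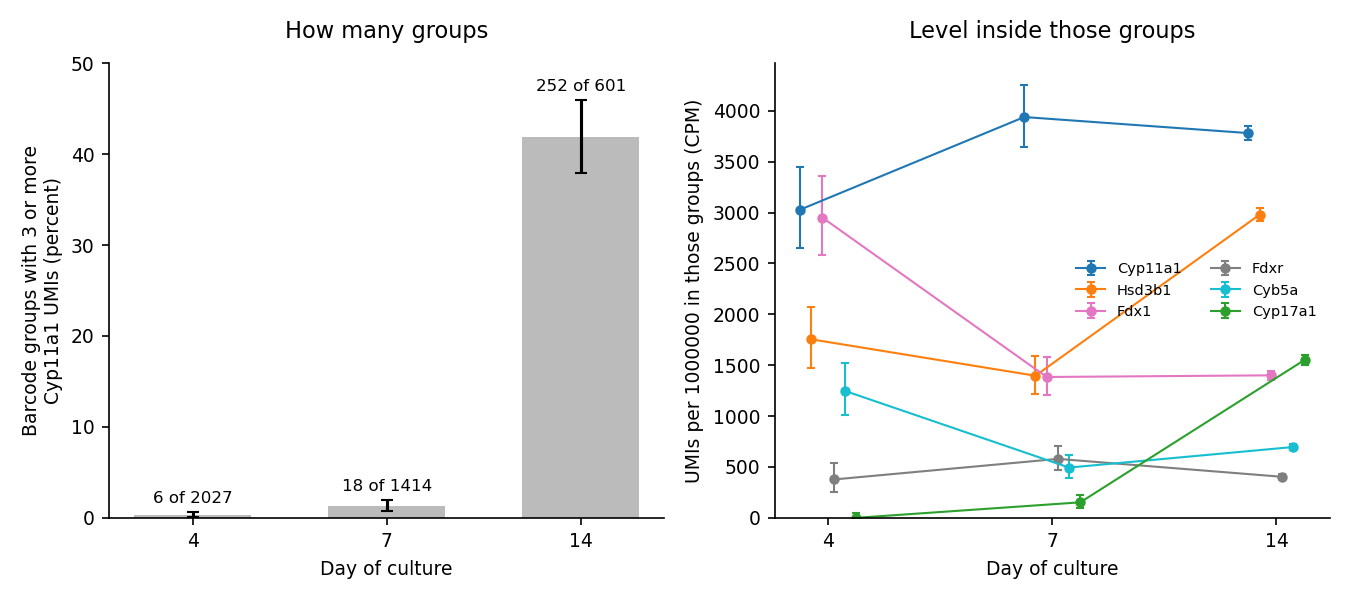
Left, percent of barcode groups of each day with 3 or more Cyp11a1 UMIs, with exact binomial 95% intervals and the numbers above the bars. Right, level of 6 genes inside those groups in UMIs per 1000000 (CPM), with 95% Poisson intervals and the days evenly spaced. The share of groups goes from 0.296% to 41.9%, and Cyp17a1 goes from 0 to 1552 CPM inside them.

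Free RNA could put UMIs into cells that do not make a transcript. Contractile cells, taken as barcodes with at least 1% of their UMIs in 6 smooth muscle genes, served as the cells that should lack the enzymes. On day 4, 0 of 296 such barcodes had a Cyp11a1 UMI, which allows up to 1.01%, and on day 7 it was 1 of 162 (0.617%), at median depths of 2470.0 and 3032 UMIs. The other barcodes had Cyp11a1 at 21.5 and 60.9 CPM, with median depths of 2920.0 and 3295 UMIs. Thinned to 1500 UMIs, Cyp11a1 was found in 0.495% and 1.86% of the other barcodes, and in 0 of the 206 and 132 contractile barcodes of that depth. Day 14 held only 2 contractile barcodes, so the library with most enzyme RNA has no such reference. Of the 401 day 14 groups with Cyp11a1, 105 had a single UMI. The part of free RNA in these was not tested.

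Co-detection on day 14 was measured after thinning every barcode to 1500 UMIs, which kept 794 of 973 barcodes and 551 of 601 groups. At that depth Cyp11a1 was found in 45.7% of barcodes and 46.3% of groups, against 57.1% and 66.7% without thinning. Hsd3b1 was found in 43.7% and 39.6%, and Cyp17a1 in 16.5% and 16.0%. The lift of a pair is the share of cells with both genes divided by the product of the separate shares, and is 1 when they are independent. It cannot exceed 1 divided by the larger share, so its ceiling is lower for genes found in more cells. Lifts of different pairs, depths or UMI minimums are thus not on the same scale. Cyp11a1 and Hsd3b1 had a lift of 1.64 over barcodes (1.53 to 1.74) and 1.69 over groups (1.56 to 1.81). Cyp11a1 and Cyp17a1 had 1.90 (1.75 to 2.02) and 1.94 (1.76 to 2.06), and Hsd3b1 and Cyp17a1 1.87 and 2.10. Cyp17a1 was rarely seen alone. Of the barcodes with Cyp17a1, 87.0% also had Cyp11a1, and over groups 89.8%, whereas only 31.4% and 31.0% of cells with Cyp11a1 had Cyp17a1. For comparison, the lift of Cyp11a1 with 8161 genes of sufficient detection had a median of 0.990 over barcodes, with 5th and 95th percentiles of 0.583 and 1.37. Over groups the median was 0.988 and the percentiles were 0.585 and 1.39.

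All 3 abundant enzymes were found together in 12.8% of barcodes (10.6 to 15.4%), where independence would give 3.30%, and in 12.7% of groups (10.0 to 15.8%), where it would give 2.92%. None of the 3 was found in 41.8% of barcodes and 44.1% of groups, against 25.5% and 27.3% under independence. The commonest partial state was Cyp11a1 with Hsd3b1 and no Cyp17a1, in 19.9% of barcodes and 18.3% of groups. Cyp17a1 alone was found in 1.51% of barcodes and 1.09% of groups, and Cyp17a1 with Hsd3b1 but no Cyp11a1 in 0.630% and 0.544%. At 1500 UMIs a missing UMI does not show that a cell lacks the transcript.

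The mitochondrial electron carriers had lifts above 1 with the enzymes, in part within the range of other genes. Fdx1 with Cyp11a1 had a lift of 1.42 over barcodes (1.31 to 1.52) and 1.37 over groups (1.24 to 1.503), and Fdxr with Cyp11a1 1.27 (1.128 to 1.40) and 1.38 (1.21 to 1.53). With Cyp17a1, Fdx1 had 1.45 and 1.72, and Fdxr 1.44 and 1.61. Against the 95th percentiles of all genes with Cyp11a1 given above, Fdx1 was over it for barcodes only and Fdxr for neither. With Cyp17a1 the 95th percentiles were 1.52 over barcodes and 1.56 over groups, and both carriers were over it for groups only. Fdx1 and Fdxr themselves, which work as a pair, had 1.11 over barcodes (0.976 to 1.24) and 1.24 over groups (1.07 to 1.41). Over the 10 pairs among Cyp11a1, Hsd3b1, Cyp17a1, Fdx1 and Fdxr the median lift was 1.44 for barcodes and 1.55 for groups, and it was 2.26 for groups when at least 2 UMIs were asked for.

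The microsomal partners gave lifts on both sides of 1. Cyb5a with Cyp11a1 had a lift of 1.08 over barcodes (0.986 to 1.16) and 1.03 over groups (0.915 to 1.14), and with Cyp17a1 1.01 (0.853 to 1.16) and 0.973 (0.777 to 1.16). With Hsd3b1 it had 1.10 over barcodes, whose interval of 1.004 to 1.18 leaves out 1, and 1.05 over groups (0.925 to 1.16). Over barcodes the intervals of Cyb5a with Fdx1 (1.09, 1.002 to 1.17), Hsd17b3 (0.347, 0.0438 to 0.966) and Por (0.604, 0.285 to 0.995) also left out 1, and over groups none of these did. Hsd17b3, found in 10 barcodes only, had intervals above 1 with Cyp17a1 (3.64, 1.59 to 5.32) and Hsd3b1 (1.83, 1.02 to 2.23). Over groups both intervals include 1. Por was found in 23 barcodes and 18 groups only. Its lift with Cyp17a1, the enzyme it serves, was 1.84 over barcodes with an interval of 0.801 to 3.21, and 1.04 over groups with 0.224 to 2.59. Por with Cyb5a had 1.29 over groups (0.830 to 1.61), so no side can be given for it. Hsd17b3, Hsd3b6 and Srd5a1 were found in 7, 5 and 1 groups, too few to place their partners.

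**Figure D4:**
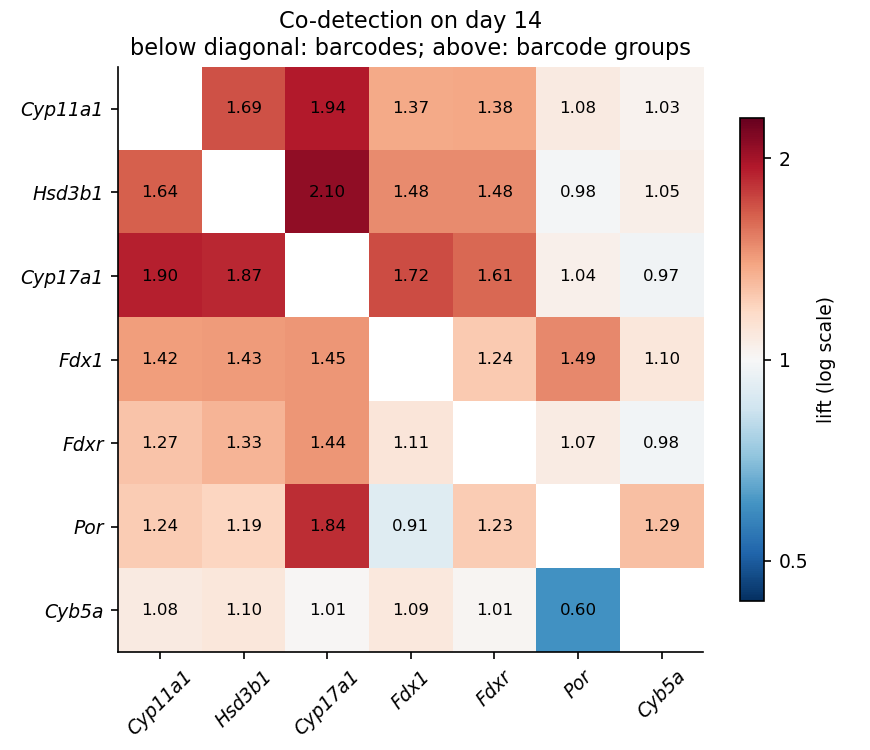
Lift of each pair of 7 members on day 14 at 1500 UMIs (share with both divided by the product of the shares), over 794 barcodes below the diagonal and 551 barcode groups above it, with colour on a log scale. Pairs of the 3 enzymes reach 1.64 to 2.10, and pairs with Cyb5a other than with Por lie between 0.97 and 1.10.

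Levels were compared in the same cells. In day 14 groups with a Cyp11a1 UMI, against groups without, Hsd3b1 had 2900.2 CPM against 248 (11.7 times, 9.62 to 14.4) and Cyp17a1 1583 against 31.5 CPM (50.2 times, 29.7 to 92.4). Fdx1 had 1265 against 322 CPM (3.93 times, 3.25 to 4.77), and Fdxr 425 against 169 CPM (2.52 times, 1.90 to 3.36). Cyb5a had 625 against 671 CPM, a ratio of 0.931 with an interval of 0.782 to 1.11, and Por 26.2 against 20.3 CPM, a ratio of 1.29 with 0.473 to 3.60. Over barcodes the ratio was 1.201 for Cyb5a (1.04 to 1.38) and 1.95 for Fdxr (1.56 to 2.45). Split by Cyp17a1 instead, Fdx1 was 2.40 times higher over barcodes (2.09 to 2.76) and Fdxr 1.67 times (1.29 to 2.15), while Por had a ratio of 2.09 on 24 UMIs in all (0.734 to 5.31). Over groups these ratios were 2.66, 2.22 and 0.991, the last with an interval of 0.185 to 3.46. Cyb5a had 1.01 over barcodes (0.829 to 1.21) and 0.768 over groups (0.587 to 0.992). Of the members with at least 20 UMIs, 3 of 6 were at least 2-fold higher with Cyp11a1 over barcodes, beside 3.54% of genes, and 4 of 5 over groups, beside 4.24%. Cyp17a1, with 14 UMIs in the groups without Cyp11a1, reached the UMI minimum over groups only through the groups with it. Its call is no support for the count over groups.

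The enzymes also scaled with one another. Groups were sorted by their Cyp11a1 UMIs at 1500 UMIs into 296 with 0, 109 with 1 to 2, 85 with 3 to 9 and 61 with 10 or more. Cyp17a1 had 31.5, 147, 1449 and 4358 CPM across these, and was found in 3.04%, 10.1%, 32.9% and 65.6% of the groups. Hsd3b1 had 248, 1463, 2889 and 5505 CPM. Fdx1 had 322, 624, 1425 and 2196 CPM, and Fdxr 169, 337, 480.3 and 508 CPM. The last step of Fdxr was within counting error, as the intervals were 367 to 617 and 372 to 677 CPM. Over groups Cyb5a had lower values in higher bins, within counting error, at 671, 667, 630 and 541 CPM, with 597 to 752 in the first bin and 400 to 715 in the last. Over barcodes in the same bins it had 620, 863, 727 and 581 CPM. There the intervals of the first bin, 561 to 684, and the next, 739 to 1002, did not overlap. Groups with no Cyp11a1 UMI on day 14 held about as much Cyb5a as the rest, and their 671 CPM was above the 249 CPM of the whole day 7 library.

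**Figure D5:**
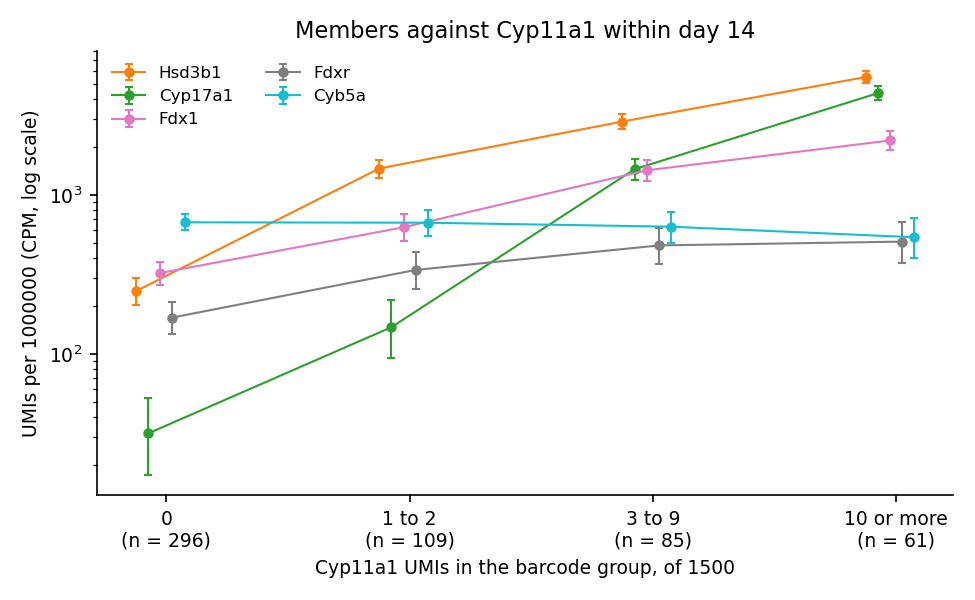
Level of 5 members in UMIs per 1000000 (CPM, log scale) in day 14 barcode groups sorted by Cyp11a1 UMIs of 1500, with 95% Poisson intervals and the number of groups under each bin. Cyp17a1 goes from 31.5 to 4358 CPM and Cyb5a from 671 to 541 CPM.

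The spread between single groups was wide. On day 14 Cyp11a1 ranged over the 401 groups that held it from 43.3 to 16204 CPM, with a median of 1093 CPM, and 200 groups had none. Of Cyp17a1, as few as 13 groups held 50% of its UMIs, 403 groups had none, and 1 group reached 346 UMIs. For Fdx1, Fdxr and Cyb5a it took 46, 79 and 97 groups to hold 50% of the UMIs.

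The other genes of steroid synthesis, cholesterol supply and steroid clearance were called in a smaller share than the members. Of a list of 52, 49 were in the table and 40 had at least 20 UMIs over days 7 and 14. Of these 13 were called higher on day 14 and 1 lower, beside the 10.1% and 14% of all genes, and the median log2 ratio was 0.50 beside -0.13. Some of the 13 reached the UMI minimum only through day 14, the day on which they were high. Lhcgr, with 11 UMIs on day 7, and Ugt1a6a, with 5, are among them. The calls of such genes are no support for the count. Star, which carries cholesterol into the mitochondrion, had 197, 362 and 1012 CPM on days 4, 7 and 14, and its day 14 level was 2.80 times that of day 7 (2.69 to 2.91). Insl3 went from 3.39 and 7.83 to 1797 CPM, the largest log2 ratio from day 7 to day 14 among the 40 genes, at 7.67. Lhcgr, the receptor for luteinizing hormone, had 0.237, 0.946 and 39.1 CPM, and Nr5a1, a transcription factor of steroid-making cells, 11.2, 21.8 and 136 CPM. Ugt1a6a, which conjugates glucuronic acid, came after Insl3 and Lhcgr, with 0.430 CPM on day 7 and 8.08 CPM on day 14. At the other end, Cyb5r1, a cytochrome b5 reductase, had 179.8 CPM on day 7 and 60.9 CPM on day 14. Tspo, an outer mitochondrial membrane protein, had 463 and 273 CPM, and Cyb5r3, the main cytochrome b5 reductase, 1086 and 728 CPM, neither of which reached 2-fold. Between days 4 and 7, 1 of 38 list genes was called higher and 4 lower, beside 2.25% and 2.76% of all genes. Between days 4 and 14, 1 of 42 was called lower, with no share over all genes taken, and 12 higher, beside 13.5%. In the last count too, Lhcgr and Ugt1a6a, with 3 and 7 UMIs on day 4, reached the minimum only through day 14. The study names Cyp11a1, Hsd3b1, Cyp17a1, Fdx1, Fdxr and Cyb5a among the markers of a cluster drawn from these same libraries, so their day 14 levels are not independent of that choice.

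Within day 14, the genes most like each member were sought by Pearson's r of log values over the 794 barcodes at 1500 UMIs, among 2288 genes found in at least 10% of them. These barcodes share 1 library and 1 depth. Insl3 headed the list for Cyp11a1 (r 0.538) and Hsd3b1 (0.559), and did so over the 551 groups too (0.577 and 0.544). Cyp11a1 was next most like Cst8 (0.483) and the glutathione transferase gene Gsta2 (0.481), and Hsd3b1 like Gsta2 (0.514) and the fatty acid binding protein gene Fabp3 (0.502). Cyp17a1 was most like Fabp3 (0.352), and Fdx1 like the alcohol dehydrogenase gene Adh1 (0.466) and Gsta2 (0.442). Over groups Fdx1 was most like Gsta2 (0.433), with Adh1 at 0.361. Fdxr reached 0.253 with Akr1cl and Cyb5a 0.217 with Star, weak values that are given as a description only. For Hsd17b3, Hsd3b6, Srd5a1 and Por the highest value was 0.162 over barcodes and 0.192 over groups, and with so few UMIs that is no finding.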

How the data were processed

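Single-cell libraries of days 4, 7 and 14 were made by Drop-seq, 1 per day. The deposited values are UMI counts per gene and barcode, not normalized. The authors aligned reads to GRCm38 with STAR (2.5.2a in the submitters' processing notes, beside Picard 2.6.0 and SAMtools 1.2) and made the counts with the Drop-seq tools. Their merged count table leaves out barcodes under 500 genes or above 10% of mitochondrial UMIs, and its barcodes were used. In the merged table, 495 columns belong to no sample used here and were left out. The separate count tables of each day, which hold all barcodes, served to study removed barcodes and other filters. One Scrublet run per day (scanpy 1.11.5) called 0, 2 and 4 barcodes, too few for the caller to have worked, so doublets were not removed.

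Counts were summed per day and given per 1000000 UMIs with exact Poisson intervals. Ratios have exact conditional binomial intervals and shares exact Clopper-Pearson intervals, at 95%. Neighbours in the order of appearance were compared by exact conditional odds ratios. PCR and capture add error that these intervals do not hold. Each day has 1 library, so no test between days was possible and no p-value is given. Thinning drew 1500 UMIs per barcode without replacement (seed 1), leaving out 753, 429 and 179 shallower barcodes on days 4, 7 and 14. A count of 0 was read as allowing 3. The ratio, call and lift steps were tested on simulated data. Computation used Python 3.11.15 with numpy 2.4.6 and scipy 1.17.1.

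The members, the lists and the markers were chosen with earlier results of these data known. Named beyond the 10 members were, of the pathway list, the 3 largest rises and 3 largest falls from day 7 to day 14 plus Star, Insl3, Lhcgr and Nr5a1, and the 3 genes most like each member. Day 4 and 7 barcode groups and the genes Cyp11b1, Mrap and Lyz2 were singled out after their values were seen. Alternatives covered filters, weights, depth, scaling totals, pseudocounts, UMI minimums and doublets. Barcode groups, single barcodes and the exclusion of early groups were added after the data were seen.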

Additional observations from a re-analysis of the deposited data

Results flagged for a closer look

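The barcodes that the study's filter removed held enzyme UMIs on day 14 and nearly none before. The 327 removed barcodes of day 14, with a median of 319 UMIs, had Cyp11a1 at 2568 CPM (2293 to 2866), Hsd3b1 at 2091 CPM (1844 to 2362) and Cyp17a1 at 1889 CPM (1655 to 2148). Those levels were 1.23, 1.18 and 2.21 times the ones in the kept barcodes, the last with an interval of 1.93 to 2.52. Among the partners, Fdx1 was at 0.866 times (0.700 to 1.06), Fdxr at 0.940 times (0.652 to 1.31) and Cyb5a at 0.728 times (0.556 to 0.937). On days 4 and 7, the 320 and 229 removed barcodes held 0 Cyp11a1 and 0 Cyp17a1 UMIs, and Hsd3b1 had 2 and 0 UMIs in them. Apart from the comparisons in this section and the alternative settings with no filter on cells, these barcodes enter no comparison of the report.

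The removed day 14 barcodes were, all but 1, of 2 kinds. The 64 with over 10% mitochondrial UMIs held Cyp17a1 at 3994 CPM (3435 to 4618) and Cyp11a1 at 3226 CPM, and 111 of their 182 Cyp17a1 UMIs came from 1 barcode. The 262 with under 500 genes and at most 10% mitochondrial UMIs held Cyp11a1 at 2205 CPM (1887 to 2561) and Cyp17a1 at 670 CPM (501 to 879), intervals that include the 2089 and 856 CPM of the kept library, and 23.3% of them had a Cyp11a1 UMI. Whether these small barcodes are cells or free RNA was not tested.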

How the results depend on the processing

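Of 132 alternative values of the main results, 108 stayed within the counting interval, or within 1.5 times for counts, and 24 moved. No log2 ratio whose interval excluded equal levels changed sign. Percents, counts and lifts are never negative, so a change of sign could not be seen in them. Among single genes and pairs, 289 of 386 stayed, 97 moved and none called changed sign. For day 14 against day 7, the median log2 ratio of the members moved from 3.15 to 2.697 with equal weight per barcode and to 2.32 with 5 CPM added. For day 7 against day 4, it changed sign, from 0.39 to -0.083, with thinning to 1500 UMIs, and the number of members at least 2-fold higher from 2 to 1 with 5 CPM added and to 1 with a minimum of 100 UMIs. The day 7 level as percent of day 14 moved for Cyp11a1 from 2.72 to 3.06 without the highest Scrublet scores, 5.71 with equal weight, 5.60 thinned and 0.0585 without the early groups, and for Cyp17a1 from 0.271 to 0.866, 0.939 and 0.0204 with the last 3 of these.

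The lift of Cyp11a1 and Hsd3b1 moved from 1.64 to 1.82 at 1000 UMIs, 1.39 at 2500 UMIs, 1.42 without thinning, 2.17 with at least 2 UMIs and 2.36 over groups with at least 2 UMIs. That of Cyp11a1 and Cyp17a1 moved from 1.90 to 2.08, 1.60, 1.55, 2.64 and 2.86 in the same settings. The median of the 10 pairs moved from 1.44 to 2.05 and 2.26 with at least 2 UMIs, over barcodes and groups. Across 13 settings the 10 pairs kept lifts above 1, with a lowest value of 1.11 and a highest of 3.14. No paired analysis was possible because each day has 1 library. Depth limits Hsd17b3, Hsd3b6 and Srd5a1 most, with 55 to 69 UMIs on day 14.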

Other observations

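Cyp11b1, which encodes the 11β-hydroxylase of the adrenal cortex, was found in the early Cyp11a1 groups. Of 35 Cyp11b1 UMIs on day 4, 34 lay in 3 of the 6 groups with at least 3 Cyp11a1 UMIs. On day 7, 6 of 8 lay in 1 of the 18 groups, and day 14 held 4 in all. Of 6 adrenal cortex markers 5 were in the table, and on day 4 Cyp21a1, Mc2r and Akr1b7 were at 0. The summed level of the list was 24.7, 20.8 and 178 CPM on days 4, 7 and 14, of which Mrap, which the list shares with other steroid-making cells, gave 21.9, 19.4 and 173 CPM. Cyp21a1, the 21-hydroxylase, had 0, 0 and 3 UMIs.

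Markers of other cells were counted beside the enzymes. The 8 macrophage markers summed to 9.31, 25.9 and 213 CPM on days 4, 7 and 14, with 7, 6 and 7 of 8 detected, and Lyz2 gave 199.6 CPM of the last. On day 14 their sum was 273 CPM in barcodes with a Cyp11a1 UMI and 62.5 CPM in those without. The contractile list summed to 4891, 4350.3 and 161 CPM, and within day 14 to 63.1 CPM with a Cyp11a1 UMI and 408 CPM without. The part of either in the levels of the members was not tested. Sertoli markers summed to between 15.0 and 34.7 CPM and germ cell markers to between 19.2 and 116 CPM. Endothelial markers summed to between 22.5 and 114 CPM and mesenchymal progenitor markers to between 292 and 803 CPM. None of these sums had an order over the days. Cdh5 gave 77.7, 111 and 22.3 CPM of the endothelial sums on days 4, 7 and 14. Among progenitor markers, Ly6a had 523, 64.2 and 358 CPM and Pdgfra 107, 65.3 and 108 CPM. Tcf21 had 30.9, 21.6 and 14.1 CPM and Nr2f2 142, 141 and 72.3 CPM, both lowest on day 14. The 7 Leydig markers, none of them a member, summed to 619.5, 704 and 7162 CPM.

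Barcodes with enzyme UMIs held slightly more mitochondrial RNA. On day 14 the median share of mitochondrial UMIs was 2.78% in the 242 kept barcodes with a Cyp17a1 UMI and 2.14% in the 731 without, at median depths of 6057 and 2885 UMIs. For Cyp11a1 the medians were 2.36% and 2.24%.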
